A study of Mus musculus with 5 samples.

Results

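The 48 genes described here encode the machinery that licenses origins and copies DNA: the origin recognition complex and its loading factors (9 genes), the replicative helicase and its activators (12), the polymerases (9), the sliding clamp and its loader (6), the single-strand binding protein RPA (3), the enzymes that finish lagging-strand fragments (3), the chromatin assembly factor (2) and the supply of deoxynucleotides (4). They were taken as a list of symbols, and all 48 were found among the 55291 gene symbols of each library and passed the filter on low counts with 17062 genes in all. RNA was sequenced from mouse bone marrow samples labelled as monocytes, 3 of wild-type genotype (replicates 1, 2 and 3) and 2 of Tet2-mutant genotype (replicates 2 and 3). Tet2 oxidises methylcytosine in DNA. The sources used here name neither the Tet2 allele nor a strain, age, treatment or sorting step. Whether each sample was a separate animal is unstated too, so a p-value covers the spread among these 5 libraries and that spread may be technical.

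Before S phase, the origin recognition complex, Cdc6 and Cdt1 load rings of the 6 Mcm2 to Mcm7 proteins onto DNA. Cdc45 and the GINS proteins then join each ring to make the working helicase, DNA polymerase alpha with primase lays primers, polymerases epsilon and delta extend them with the Pcna clamp, and ribonucleotide reductase supplies the building blocks. Many of these genes are transcribed in proliferating cells under E2F factors. In marrow, dividing cells are mainly precursors of the erythroid, granulocyte, monocyte and B cell lineages, while mature neutrophils and monocytes divide little.

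Gene counts summed to 53789308 to 72414875 per wild-type library, to 17459808 in Tet2-mutant replicate 2 but 60508381 in replicate 3. Levels are given as CPM, the usual scaling of counts by a library's total, here after adjustment by edgeR's TMM factors, which were 1.14 to 1.17 in the wild type but 0.723 and 0.896 in the mutant (replicate 2, then 3, as in every pair of mutant values below). A count of 3, taken as the floor of detection, was worth 0.238 CPM in the shallowest library and 0.0358 to 0.0554 CPM in the others. The mutant libraries stood apart from each other, with a Pearson correlation of log2 CPM across genes (which are not independent replicates) of 0.885. Between wild-type libraries it was 0.975 to 0.984. With the wild-type libraries, Tet2-mutant replicate 2 correlated at 0.904 to 0.910 and replicate 3 at 0.838 to 0.845. Genes with any count numbered 24532 to 26207 per wild-type library, but 18047 and 17944 in the mutant libraries. Tet2 transcript stood at 11.9, 9.77 and 10.6 CPM in wild-type libraries, with 5.31 CPM in one mutant library and 15.6 CPM in the other, so its amount gives no check on which libraries carry the mutation. The monocyte marker Ly6c2 was at 351, 500.3 and 409 CPM in wild-type marrow, with 384 and 165 CPM in mutant marrow, beside 13815 to 25515 CPM of the neutrophil gene Ngp and 1163 to 8412 CPM of the globin gene Hbb-bs over the 5 libraries. Transcripts of cells other than monocytes were thus abundant in every library, and in such bulk samples fewer cells of a type and less RNA per cell cannot be told apart.

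Replication genes were lower in the Tet2-mutant libraries, steeply in replicate 3 and mildly in replicate 2. Against the wild-type mean the median member stood at 69.9% in Tet2-mutant replicate 2 and at 27.9% in replicate 3, where the median of all tested genes was 75.0% and 85.7%. On the log2 CPM scale the median difference of the members was -0.51 in replicate 2 against -0.34 for all genes, and -1.83 in replicate 3 against -0.20 for all genes. The members' shift in Tet2-mutant replicate 2 was therefore close to that of the whole transcriptome, and the one in replicate 3 was not. Replicate 3 was the lower of the mutant libraries for 44 of 48 members and for 9423 of the 17062 tested genes.

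**Figure D1:**
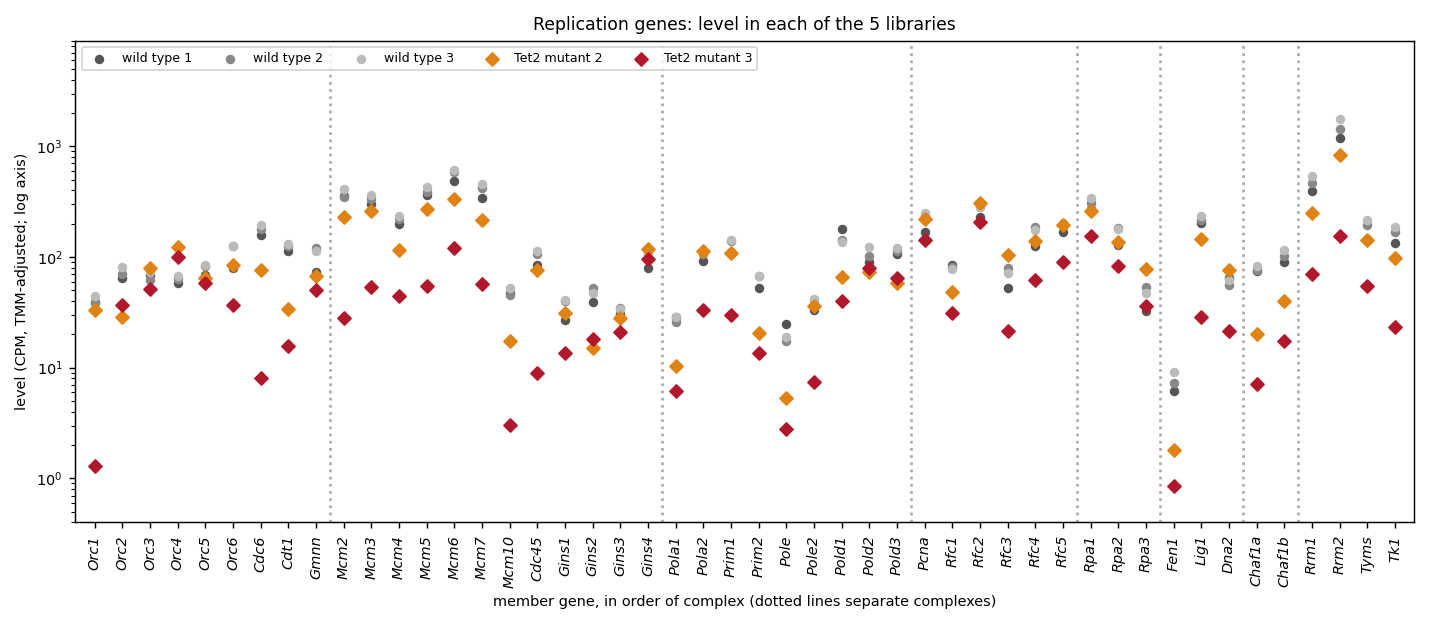
Level of each of the 48 members (x axis, in order of complex) in the 5 libraries (y axis, TMM-adjusted CPM on a log axis), with circles for wild-type and diamonds for Tet2-mutant libraries. Tet2-mutant replicate 3 lies below every wild-type library for 45 of 48 genes, and the gap is widest for Orc1, at 1.29 CPM against 38.1 to 44.6 CPM.

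In the test of genotype, 10 of 48 members fell and 0 rose (edgeR's quasi-likelihood test, p adjusted over all 17062 genes by Benjamini-Hochberg and taken as passing under 0.05). That is 20.8% of the members lower, where 4.43% of all tested genes were lower and 10.6% higher. The 10 were Cdt1, Prim2, Chaf1a, Pold1, Chaf1b, Gins2, Pole, Pola1, Orc2 and Pold3. A further 11 members were lower and Orc4 higher at an unadjusted p under 0.05 without passing the adjustment. With the called genes counted in, 22 of 48 members and 6685 of 17062 tested genes had such a p, 21 and 3182 of them lower. Log2 fold changes, mutant over wild type, had a median of -1.06 over the members and of -0.07 over all tested genes. For the members 45 of 48 estimates were negative, against 8871 of 17062 over all tested genes.

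Both mutant libraries lay below every wild-type library for 33 of 48 members, against 33.3% of all genes, and 23 of these 33 did not pass the test. Over all genes, 28.9% lay below in both without passing. Both lay above every wild-type library for 1 member, Orc4, against 22.9% of all genes. Tet2-mutant replicate 2 alone was below every wild-type library for 33 members (50.3% of all genes) and above for 8 (6034 of the 17062 tested genes), and Tet2-mutant replicate 3 was below for 45 (49.2% of all genes). When CPM was taken on library size alone, replicate 2 was below for 45 members (66.2% of all genes) and replicate 3 for 47 (57.1% of all genes), and 32 members were called lower (16.9% of all genes).

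The count of called members rested on which libraries were in the fit. Leaving out wild-type replicate 1, 2 or 3 brought it to 1, 2 and 2, where 0.0371%, 0.112% and 0.0846% of all genes were called lower. Cdt1 fell in each of those 3 fits and Chaf1a in the ones without wild-type replicates 2 and 3. Over all 13 alternative analyses, Prim2, Pold1 and Chaf1b kept their call in 10, Gins2, Pola1 and Pole in 9, Orc2 in 8 and Pold3 in 6. With only 1 mutant library left, which was then assumed to vary like the wild type, 40 members were called lower without Tet2-mutant replicate 2 (32.2% of all genes) and 17 without Tet2-mutant replicate 3 (18.4% of all genes). The median log2 fold change was -1.85 without replicate 2, against -0.30 for all genes, and -0.52 without replicate 3, against -0.49 for all genes.

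**Figure D2:**
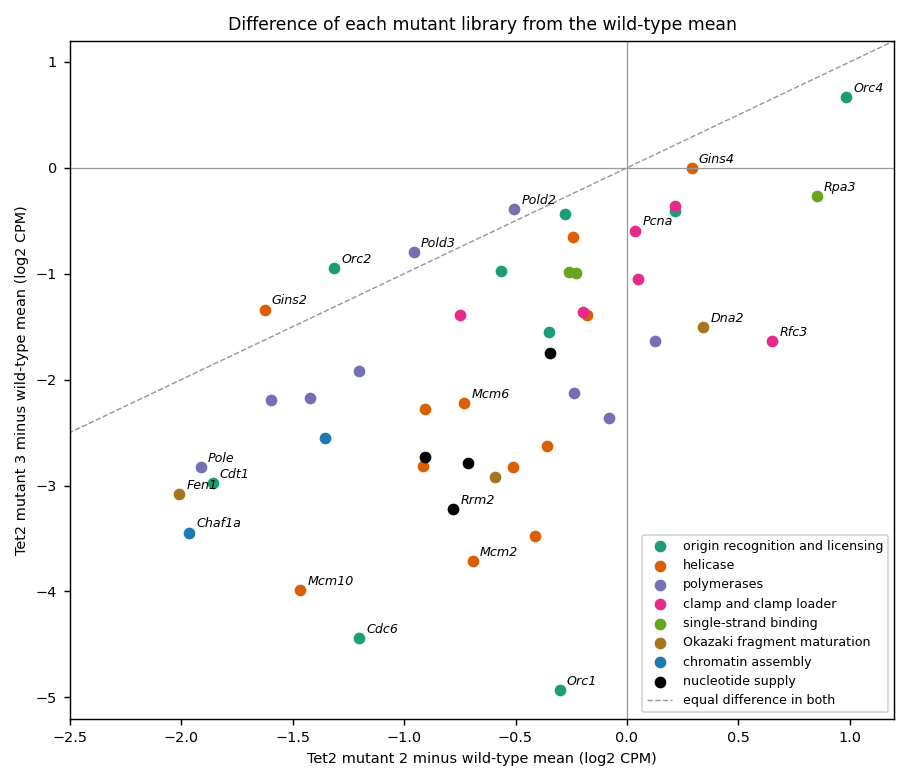
Difference of Tet2-mutant replicate 2 (x axis) and replicate 3 (y axis) from the wild-type mean for each member, both in log2 CPM, coloured by complex, with the dashed line where both differences are equal. Most members lie below the line, Orc1 the farthest, while Orc2, Gins2, Pold2 and Pold3 lie just above it.

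Promoter sequence was not used to build the list. A RefSeq promoter window, 250 bases before to 50 after a start in GRCm38.p6, was at hand for 40 of the 48 genes. An E2F-type element, searched on both strands as TTTCCCGC, TTTGGCGC, TTTCGCGC or TTTGCCGC, was found for 15 of these 40 genes (37.5%), against 4.43% of the 11574 tested genes with a window and 2.60% of all RefSeq genes. These 8-base words can overlap each other. The CCAAT box, searched as CCAAT on both strands, was found for 24 of 40 members (60.0%), against 42.45% of tested genes, and for 8 of the 8 helicase genes with a window. The word TTTGAA, a form of the CHR element of G2 and mitosis genes, was found for 5 of 40 members (12.5%), against 15.4% of tested genes. In windows of 1 length per start, 31.25% of member windows and 2.26% of all 32851 windows held the E2F word. A match is only a run of letters and no sign of binding.

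The 9 stretches below are shown because each holds the word upstream of the start. Of these genes Pola1 passed the test of genotype, and Orc1, Cdc6, Mcm5, Mcm6, Mcm7, Orc3, Gins3 and Rfc3 did not. Capitals mark E2F-type words and CCAAT boxes (ATTGG on the other strand), and each stretch reads 5′ to 3′ on the gene's strand.
Orc1 (chr4:108579397-108579453, plus strand): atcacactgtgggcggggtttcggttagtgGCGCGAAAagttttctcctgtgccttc
Cdc6 (chr11:98907983-98908050, plus strand): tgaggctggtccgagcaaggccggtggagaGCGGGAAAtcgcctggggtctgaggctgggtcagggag
Mcm5 (chr8:75109326-75109397, plus strand): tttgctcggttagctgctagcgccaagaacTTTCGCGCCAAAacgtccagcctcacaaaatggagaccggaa
Mcm6 (chr1:128359715-128359782, minus strand): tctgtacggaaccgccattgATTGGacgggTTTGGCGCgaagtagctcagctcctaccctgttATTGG
Mcm7 (chr5:138172011-138172078, minus strand): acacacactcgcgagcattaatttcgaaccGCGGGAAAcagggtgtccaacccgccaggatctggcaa
Pola1 (chrX:93632256-93632323, minus strand): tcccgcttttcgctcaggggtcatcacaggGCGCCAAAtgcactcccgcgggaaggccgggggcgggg
Orc3 (chr4:34614946-34615013, minus strand): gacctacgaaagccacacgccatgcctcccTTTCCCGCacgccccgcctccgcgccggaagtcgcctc
Gins3 (chr8:95633488-95633555, plus strand): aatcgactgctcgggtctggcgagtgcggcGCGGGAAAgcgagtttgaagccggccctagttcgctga
Rfc3 (chr5:151651209-151651248, minus strand): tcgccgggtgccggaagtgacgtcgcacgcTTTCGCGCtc

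Members with and without the word overlapped widely in their response. The 15 genes with it had a median log2 fold change of -1.26 and ranged from -2.32 (Cdt1) to -0.07 (Orc3), and the 25 without it had a median of -0.90 and ranged from -2.54 (Chaf1a) to 0.83 (Orc4). No test was run on this split. In Mcm5 an overlapping pair of words makes up the capital run of the stretch. Of 21 words in the members' windows, 5 began within 100 bases before the start and 9 after it.

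**Figure D3:**
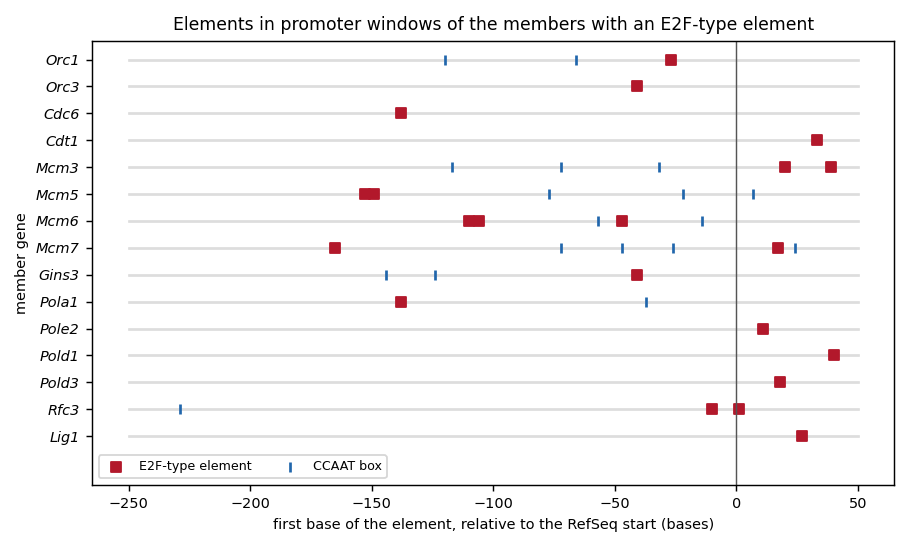
Position of E2F-type words (squares) and CCAAT boxes (bars) in the promoter windows of the 15 members that hold an E2F-type word, in bases from the RefSeq start (x axis), 1 row per gene with all its windows overlaid. The words of Orc1, Orc3, Cdc6, Mcm5, Mcm6, Gins3 and Pola1 lie before the start, those of Cdt1, Mcm3, Pole2, Pold1, Pold3 and Lig1 after it, and Mcm7 and Rfc3 have words on both sides.

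The origin recognition complex did not move as a unit. Orc1, the subunit whose transcript follows the cell cycle, stood at 39.2, 38.1 and 44.6 CPM in wild-type libraries but at 32.9 CPM, then 1.29 CPM, in the mutant ones. Both mutant libraries were below the wild type, by a little in replicate 2 and down to 3.18% of the wild-type mean in replicate 3, where the level rested on 70 counts. Its log2 fold change was -1.26 ± 1.04 (SE; adjusted p = 0.383 by edgeR), the widest error among the members. Orc2, a core subunit (chromosome 1, 58462771 to 58505109 in GRCm38), fell from 64.2, 69.7 and 81.4 CPM to 28.7 and 37.1 CPM (log2 fold change -1.13 ± 0.29, adjusted p = 0.0449). Of its exon bases, 29.8% overlap Nif3l1 on the other strand.

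Orc4, another core subunit, went the other way, at 57.8, 62.9 and 67.9 CPM in the wild type and 124 and 99.6 CPM in the mutant. The groups did not overlap, but the log2 fold change of 0.83 ± 0.25 missed the threshold (adjusted p = 0.0599). Orc3 and Orc5, at 62.6 to 73.1 and 68.7 to 84.4 CPM in the wild type, were at 79.1 and 64.7 CPM in replicate 2 and at 51.4 and 58.0 CPM in replicate 3. Orc6, the smallest subunit, was at 79.7, 127 and 127 CPM in wild-type marrow, with 85.2 and 37.1 CPM in mutant marrow, so that replicate 2 lay inside the wild-type range and replicate 3 below it.

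The loading factors were among the lowest of all members. Cdt1, which brings the Mcm ring to the origin (chromosome 8, 122568015 to 122573554), fell from 114, 127 and 132 CPM to 34.2 and 15.7 CPM, or from 124 ± 9.30 (SD, n = 3) to 25.0 ± 13.1 CPM (SD, n = 2). Its log2 fold change of -2.32 ± 0.39 had the smallest p of the 48 members (adjusted p = 0.0138), and it was the one member that kept its call in all 13 alternative analyses, at adjusted p from 2.54e-06 to 0.0415. Cdc6, the ATPase that loads with it, stood at 157, 181 and 195 CPM in wild-type marrow, with 76.9 and 8.12 CPM in mutant marrow. Both mutant libraries were below the wild type, but they lay so far apart that the log2 fold change of -2.07 ± 0.81 did not pass (adjusted p = 0.108). Gmnn, which encodes geminin, the inhibitor of Cdt1, was at 73.2, 120 and 112 CPM against 67.3 and 50.5 CPM (log2 fold change -0.79 ± 0.31, adjusted p = 0.112), a smaller difference than that of Cdt1.

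The helicase ring genes were all below the wild type in both mutant libraries, and none passed the test. Per kilobase of exon the 6 ring genes Mcm2 to Mcm7 ranged from 53.5 (Mcm2) to 120.2 (Mcm6) CPM per kilobase in the wild type. The range was 32.3 to 72.1 in Tet2-mutant replicate 2 and 4.05 (Mcm2) to 25.7 (Mcm6) in replicate 3. Mcm6 was at 488, 585 and 609.9 CPM in wild-type marrow, with 336 and 119.8 CPM in mutant marrow (log2 fold change -1.30 ± 0.44, adjusted p = 0.079). Mcm4 was at 200.5, 219 and 236 CPM against 116 and 44.8 CPM (log2 fold change -1.44 ± 0.41, adjusted p = 0.0553). Mcm7 was at 340.2, 419 and 460.5 CPM against 214 and 57.1 CPM (log2 fold change -1.59 ± 0.53, adjusted p = 0.0777). Exons of other genes, Cops6 on the other strand among them, cover 12.6% of Mcm7's exon bases. Cops6 rose from 144 to 183 CPM in the wild type to 488 and 333 CPM (adjusted p = 0.0258), and its part in the Mcm7 counts was not tested. One order held in all 6 ring genes: wild type highest, replicate 2 at 52.7% to 77.7% of the wild-type mean, and replicate 3 at 7.58% to 21.4%.

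Mcm2 showed the steepest drop of the ring in Tet2-mutant replicate 3, with 357, 349 and 411 CPM in the wild type and 229.8 and 28.2 CPM in the mutant. Mcm3 and Mcm5 stood at 258 and 274 CPM in replicate 2 and at 53.5 and 55.1 CPM in replicate 3, against 301 to 362 and 362 to 425 CPM in the wild type. Mcm10, which helps to activate the helicase, was at 47.0, 45.3 and 52.5 CPM against 17.4 and 3.01 CPM (log2 fold change -2.26 ± 0.70, adjusted p = 0.0665). Cdc45, the helicase cofactor, was at 84.1, 107 and 113 CPM against 75.6 and 9.03 CPM (adjusted p = 0.239). For Cdc45 replicate 2 was only just below the wild type, whereas replicate 3 was at 8.89% of its mean.

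The 4 GINS subunits, which travel as 1 complex with Cdc45 and the ring, differed from each other. Gins2 (chromosome 8, 120578633 to 120589304) fell from 39.6, 52.7 and 47.5 CPM to 15.0 and 18.3 CPM (log2 fold change -1.49 ± 0.33, adjusted p = 0.0325), with both mutant libraries at a similar level. Gins4 was at 78.9, 108 and 105 CPM in wild-type marrow, with 118 and 95.9 CPM in mutant marrow, with no separation of the groups (log2 fold change 0.14 ± 0.26, adjusted p = 0.717). Gins1 and Gins3 were at 37.5% and 63.6% of the wild-type mean in Tet2-mutant replicate 3, where Gins2 was at 39.2% and Gins4 at 98.6%. The exons of Gins2 overlap those of Gse1 on the other strand over 67.3% of their bases, and Gse1 was itself at 6.95 to 13.1 CPM in wild-type marrow, with 2.61 and 2.12 CPM in mutant marrow. Since the strand setting of the counts is not given in the sources used here, reads of this pair cannot be told apart.

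Polymerase genes held 5 of the 10 members that fell, the large catalytic subunits among them. Pola1, the catalytic subunit of polymerase alpha (chromosome X, 93304767 to 93632155), fell from 28.5, 25.7 and 29.0 CPM to 10.3 and 6.13 CPM (log2 fold change -1.76 ± 0.42, adjusted p = 0.0374). Pole, that of polymerase epsilon on the leading strand (chromosome 5, 110286306 to 110337474), fell from 24.6, 17.4 and 18.9 CPM to 5.31 and 2.81 CPM (log2 fold change -2.34 ± 0.52, adjusted p = 0.0326). Pold1, that of polymerase delta on the lagging strand (chromosome 7, 44532746 to 44548849), fell from 179, 141 and 137 CPM to 65.6 and 40.1 CPM (log2 fold change -1.53 ± 0.31, adjusted p = 0.0261). In each of these 3 genes both mutant libraries lay below every wild-type library, and replicate 3 was the lower of them.

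Their partner subunits were less uniform. Prim2, the large subunit of primase (chromosome 1, 33453810 to 33669795), fell from 53.0, 66.8 and 67.5 CPM to 20.5 and 13.5 CPM (log2 fold change -1.88 ± 0.34, adjusted p = 0.0178), while the small subunit Prim1 was at 111, 139 and 141 CPM against 109.7 and 29.7 CPM (adjusted p = 0.219). Prim1 in Tet2-mutant replicate 2 was thus just under the lowest wild-type library. Pold3 (chromosome 7, 100082111 to 100121565) fell from 107, 113 and 121 CPM to 58.5 and 65.3 CPM (log2 fold change -0.88 ± 0.24, adjusted p = 0.0494), the smallest of the called differences. Pold2 was at 89.4, 103 and 123 CPM against 73.4 and 79.6 CPM and did not pass (adjusted p = 0.211). Pola2 and Pole2, the regulatory subunits of polymerases alpha and epsilon, were at 113 and 36.2 CPM in Tet2-mutant replicate 2, against 92.0 to 112 and 33.0 to 41.9 CPM in the wild type. In replicate 3 both were low, at 33.1 and 7.44 CPM. Per kilobase of exon the wild type held 3.15 CPM of Pola1 beside 12.5 of Pola2, and 1.82 of Pole beside 13.4 of Pole2, so the catalytic subunits were the scarcer transcripts in these pairs.

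**Figure D4:**
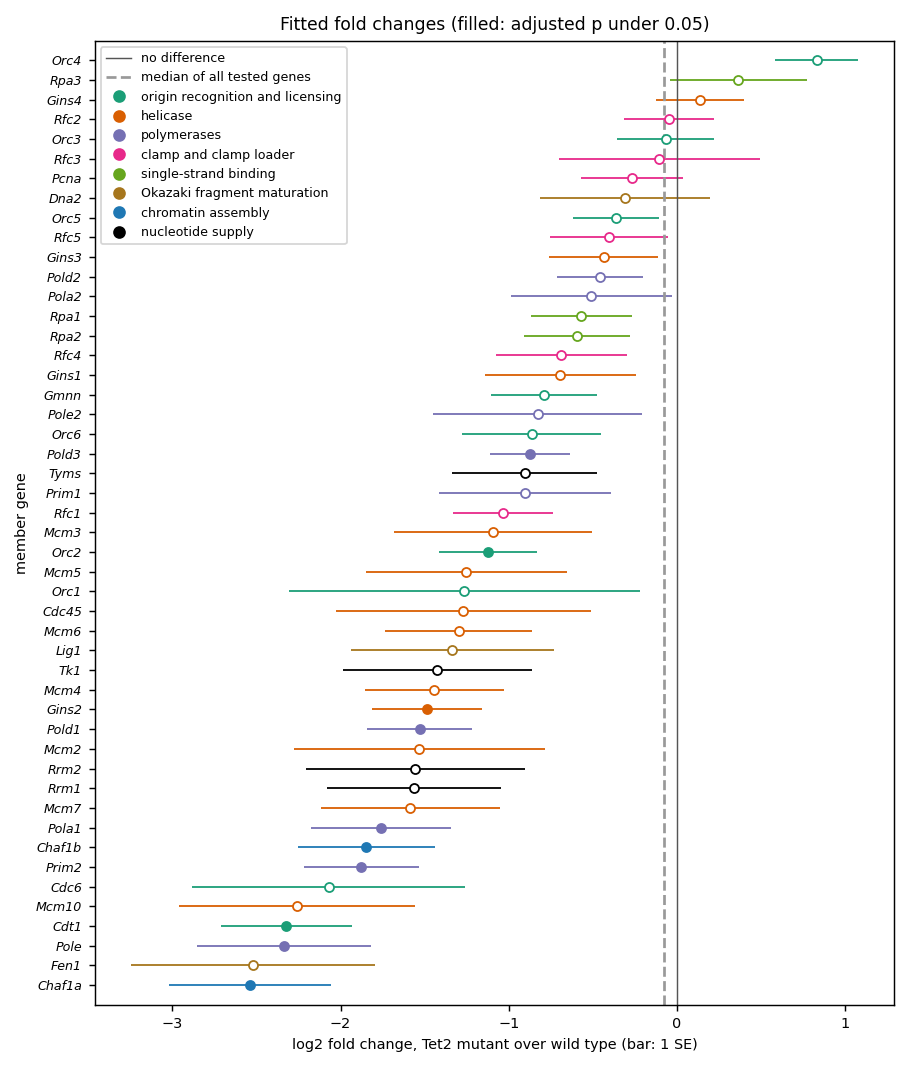
Fitted log2 fold change between genotypes, mutant over wild type (x axis, bars of 1 SE) for each member, sorted and coloured by complex, with filled points where the adjusted p was under 0.05. Estimates run from -2.54 for Chaf1a to 0.83 for Orc4, and 45 of 48 lie left of 0.

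In the fit over both mutant libraries the clamp and its loader were the least changed of the larger groups, with 0 of 6 called and a median log2 fold change of -0.34. Their median difference from the wild-type mean was 0.04 log2 units in replicate 2. In replicate 3 it was -1.21, against -0.98 for origin and licensing genes, and 6 of 6 lay below every wild-type library. Pcna, the sliding clamp, was at 169, 242 and 250.4 CPM in wild-type marrow, with 223 and 144 CPM in mutant marrow (log2 fold change -0.27 ± 0.30, adjusted p = 0.527). Rfc2, a small loader subunit, was at 231, 281 and 281 CPM against 306 and 205 CPM, with 1 mutant library above and 1 below the wild type. Rfc3 showed the same split more widely, at 52.3, 78.8 and 72.1 CPM against 105 and 21.4 CPM. Rfc4 and Rfc5 were inside the wild-type range in Tet2-mutant replicate 2 and at 38.3% and 48.1% of its mean in replicate 3. The large subunit Rfc1 was at 83.9, 81.0 and 78.3 CPM against 48.2 and 31.0 CPM, apart from the wild type in both (log2 fold change -1.04 ± 0.30, adjusted p = 0.0562). Exons of Lat2, which rose (adjusted p = 0.00225), cover 15.1% of those of Rfc2 on the other strand.

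RPA, which coats single-stranded DNA at the fork, had 0 of 3 called. Its median difference from the wild-type mean was -0.23 log2 units in replicate 2 and -0.98 in replicate 3. Rpa1 and Rpa2 were at 262 and 135 CPM in Tet2-mutant replicate 2 and at 154 and 82.3 CPM in replicate 3, against 273 to 345 and 128 to 184 CPM in the wild type. Rpa3, the smallest subunit, was at 78.6 and 36.1 CPM against 32.5, 53.2 and 47.7 CPM.

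Among genes of fragment maturation, Lig1, the ligase that seals lagging-strand fragments, was at 201, 217 and 235 CPM in wild-type marrow, with 144 and 28.6 CPM in mutant marrow (log2 fold change -1.34 ± 0.60, adjusted p = 0.143). Dna2, a nuclease and helicase, was above the wild type in Tet2-mutant replicate 2 and below it in replicate 3, at 76.8 and 21.3 CPM against 55.8 to 64.1 CPM. Fen1, the flap nuclease, was the scarcest member at 6.14, 7.27 and 9.22 CPM against 1.82 and 0.849 CPM, from 23 and 46 counts in the mutant (log2 fold change -2.52 ± 0.72, adjusted p = 0.0555). Of its exon bases, 84.2% overlap Tmem258 and Gm10143 on the other strand, so how many Fen1 reads were counted is uncertain and its level may be too low.

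Chromatin assembly factor 1, which follows the fork and deposits histones on new DNA, was the one complex with every listed member called. Chaf1a, its large subunit (chromosome 17, 56040439 to 56072289), fell from 75.1, 77.0 and 83.3 CPM to 20.04 and 7.16 CPM, or from 78.5 ± 4.26 (SD, n = 3) to 13.6 ± 9.11 CPM (SD, n = 2). The log2 fold change was -2.54 ± 0.48 (adjusted p = 0.0203), the largest among the members, and it kept its call in 12 of 13 alternative analyses. Chaf1b (chromosome 16, 93883901 to 93906115) stood at 89.9, 102 and 115 CPM against 39.8 and 17.3 CPM and fell too (log2 fold change -1.85 ± 0.41, adjusted p = 0.032). Exons of Ubxn6 on the other strand cover 52.5% of Chaf1a's exon bases, and Ubxn6 was at 10.4 to 12.4 CPM in wild-type marrow, with 4.28 and 17.2 CPM in mutant marrow. Ubxn6 was thus below the wild type in replicate 2, like Chaf1a, and above it in replicate 3. With the strand setting not given, what this overlap did to the counts of Chaf1a was not tested.

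The nucleotide supply genes lay below the wild type in both mutant libraries for 4 of 4, and 0 passed. Rrm2, the cell-cycle-regulated subunit of ribonucleotide reductase, was the most abundant member per kilobase, with 527 CPM per kilobase in the wild type. It stood at 1180.2, 1424 and 1773 CPM in wild-type marrow, with 838 and 154 CPM in mutant marrow (log2 fold change -1.56 ± 0.65, adjusted p = 0.123). Its partner Rrm1 was at 394, 469 and 540.0 CPM against 247 and 69.7 CPM (log2 fold change -1.56 ± 0.52, adjusted p = 0.0755), nearly the same ratio. Tk1, the cytosolic thymidine kinase, was at 135, 169 and 185 CPM against 98.4 and 23.4 CPM (log2 fold change -1.42 ± 0.56, adjusted p = 0.110). Tyms, which makes thymidylate, was at 145, 194 and 217 CPM against 144 and 54.6 CPM (log2 fold change -0.90 ± 0.43, adjusted p = 0.159), with replicate 2 barely under the wild type.

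Across the complexes the distance between the mutant libraries varied. For 29 of 48 members replicate 3 was more than 1 log2 unit below replicate 2, which held for 32.1% of all tested genes. The median distance was -1.70 for the helicase genes and -1.95 for nucleotide supply, against -0.62 for origin and licensing genes, -0.75 for polymerases and -0.23 for all tested genes. In 9 members the mutant libraries were within 0.5 log2 units of each other, as for 24.3% of all genes. No member was under 20% of the wild-type mean in replicate 2, where 8.63% of all genes were, and 18 were in replicate 3, where 24.2% of all genes were.

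Genes around the fork that are not among the 48 were read from lists of 24, 29, 23 and 20 genes. Of 24 firing and fork factors 4 fell and 0 rose, where 4.43% of all tested genes fell and 10.6% rose. Their median log2 fold change was -0.69. Topbp1, which recruits Cdc45, fell from 99.2, 85.5 and 91.5 CPM to 34.5 and 18.5 CPM (log2 fold change -1.801 ± 0.349, adjusted p = 0.022), and the fork protection gene Timeless from 46.7, 51.3 and 47.1 CPM to 14.4 and 5.96 CPM (adjusted p = 0.0256). Mtbp and Recql4, both needed for origin firing, fell by 1.97 and 2.48 on the log2 scale (adjusted p = 0.0408 and 0.041).

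Of 29 E2F and G1/S control genes 2 fell and 3 rose (median -0.93), counts near the 4.43% lower and 10.6% higher of all tested genes. E2f1, an activator of replication genes, fell from 86.4, 98.8 and 97.9 CPM to 39.9 and 24.8 CPM (log2 fold change -1.54 ± 0.31, adjusted p = 0.0249). The other gene that fell, Skp2, which targets the inhibitor p27 for degradation, is named after its values were seen (adjusted p = 0.0328). Cdkn1a, which encodes the Cdk inhibitor p21, rose from 11.9, 13.9 and 18.3 CPM to 100.8 and 47.6 CPM (log2 fold change 2.33 ± 0.41, adjusted p = 0.0159). Among D-type cyclin genes, Ccnd1 and Ccnd2 rose by 3.24 ± 0.61 and 2.001 ± 0.385 on the log2 scale (adjusted p = 0.0197 and 0.0215). Both were highest in Tet2-mutant replicate 3, at 58.5 and 355 CPM, the library with the lowest replication genes. Ccnd3, the most abundant D-type cyclin gene of the list, went the other way and is named after its values were seen. It stood at 1148, 1346 and 1283 CPM in wild-type marrow, with 866 and 389 CPM in mutant marrow. Both mutant libraries lay below every wild-type library, but Ccnd3 did not pass the test (adjusted p = 0.0964).

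In other nucleotide metabolism 0 of 23 genes fell and 2 rose (median -0.42), where 4.43% of all tested genes fell and 10.6% rose. Samhd1, which breaks down deoxynucleotides, rose from 410.2, 320.4 and 315 CPM to 841 and 659 CPM (log2 fold change 1.10 ± 0.26, adjusted p = 0.0359). Nme1, a nucleoside diphosphate kinase, rose from 68.8, 123 and 128 CPM to 259 and 230.3 CPM (adjusted p = 0.0472), and its neighbour Nme2 is so alike that reads may have been shared. Of 20 mitosis genes 0 passed, with a median of -1.30 and 20 of 20 estimates negative. Of these 20, 6 were lower at an unadjusted p under 0.05, against 3182 of the 17062 tested genes. The mitotic genes with the smallest p were Cdc20, at 163.6 and 48.6 CPM against 238 to 332 CPM, and Ccnb1, at 110.1 and 26.4 CPM against 159 to 238 CPM (adjusted p = 0.082 and 0.0946). In Tet2-mutant replicate 3 the median difference from the wild-type mean was -2.72 log2 units for mitosis and -2.16 for firing and fork factors.

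**Figure D5:**
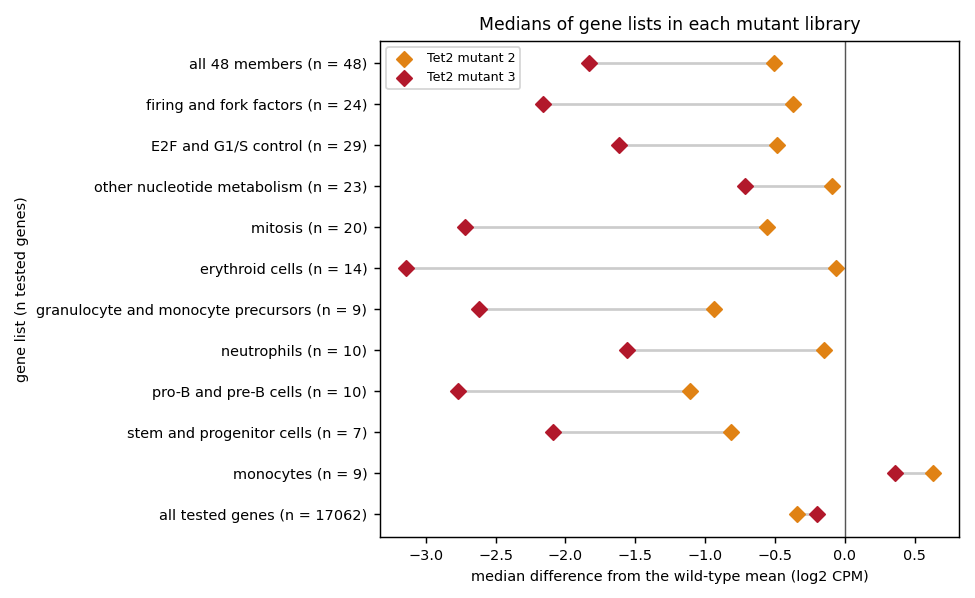
Median difference from the wild-type mean (x axis, log2 CPM) of each gene list in Tet2-mutant replicates 2 and 3 (diamonds), with the number of tested genes beside each list. The members sit at -0.51 and -1.83, and lists of erythroid cells and of granulocyte and monocyte precursors are also low in replicate 3, at -3.14 and -2.62.

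The lists of erythroid, granulocyte and monocyte precursor, pro-B and pre-B, and stem and progenitor markers had median differences from the wild-type mean of -3.14 to -2.09 log2 units in Tet2-mutant replicate 3 and of -1.11 to -0.06 in replicate 2, with 1 erythroid gene and none of the other lists called lower. The summed level of 9 genes of granulocyte and monocyte precursors was 8454 to 10153 CPM in the wild type, 4554 CPM in Tet2-mutant replicate 2 but 940.4 CPM in replicate 3, and 8 of the 9 had both mutant libraries under the whole wild-type range. Mpo and Elane, granule enzymes of these precursors, were at 1963 and 884 CPM in replicate 2 and at 207 and 152 CPM in replicate 3, against 3923 to 6183 and 1779 to 2072 CPM. The sum of 14 erythroid genes was 9567 to 22596 CPM in the wild type, 18346 CPM in replicate 2 and 2584 CPM in replicate 3, with 4 of 14 below in both. Beside such counts, here and for the lists that follow, 33.3% of all tested genes were below in both.

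For 10 pro-B and pre-B genes the sum was 26.05 to 207 CPM in wild-type libraries, then 43.0 and 70.4 CPM in mutant ones. Both mutant libraries were below for 2 of 10. Most of the sum in Tet2-mutant replicate 3 came from Ebf1 and Lef1, at 42.1 and 17.5 CPM, both above every wild-type library. In that library 6 of the 10 lay below every wild-type library, and the median difference was -2.77 log2 units. Vpreb1 and Igll1 were low in wild-type replicate 3 too, at 1.52 and 3.40 CPM. For 7 stem and progenitor genes the sum was 122 to 149.8 CPM in the wild type, 248 CPM in replicate 2 and 65.7 CPM in replicate 3. In replicate 2, 4 of these 7 were nevertheless below every wild-type library (median difference -0.81 log2 units), 3 of 7 were below in both mutant libraries, and Kit was at 105.8 and 18.1 CPM against 25.5 to 48.8 CPM. The 10 neutrophil genes summed to 43202 to 54881 CPM, 52510.2 CPM and 23746 CPM in the same order, with 5 of 10 below in both.

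Markers of several other cells were higher in the mutant libraries. Of all tested genes, 22.9% were above in both and 33.3% below in both. The sum of 10 macrophage genes was 634 to 772 CPM in the wild type and 8624 and 7772 CPM in the mutant, with 10 of 10 above in both and C1qa at 21.6 to 25.0 against 407 and 308 CPM. Mature B cell genes summed to 99.5 to 461 CPM in the wild type and to 640.5 and 4770.4 CPM in the mutant (3 of 7 above in both). Most of the sum in replicate 3 came from Cd79b and Ms4a1, at 2449 and 1119 CPM. In that library 5 of the 7 lay above every wild-type library, but Fcer2a lay below them all. Wild-type libraries held 1.22 to 19.0 CPM of Fcer2a, and replicate 3 held 0.277 CPM. Cr2 stayed inside the wild-type range in both mutant libraries. The 8 T cell genes summed to 64.5 to 155 CPM against 1021 and 767 CPM (5 of 8 above in both), with Cd3e at 9.18 to 16.4 against 78.7 and 76.8 CPM. For 9 monocyte genes the sums were 1555 to 1622 CPM against 2758 and 1956 CPM, with 4 of 9 above in both and 1 below. The 12 pancreatic acinar genes summed to 40.4 to 56.8 CPM against 715 and 1783 CPM, with 12 of 12 above in both and Cel at 0.255 to 0.359 against 93.2 and 202 CPM. Amy2b was the one marker of these lists with a library at 0. The part that any of these cell types had in the levels of the replication genes was not tested.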

How the data were processed

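The authors deposited 1 file of raw gene counts per library. Per the labels' protocols, RNA was extracted with an RNeasy kit and libraries were made with a SMARTer mRNA kit. Per the submitters' processing notes, reads went through Trimmomatic and STAR with mm10. The sources used here name no versions, counter, annotation or strand setting. No molecular identifiers are named, and the floors cover counting error only. The SEs and SDs include the spread among libraries as well.

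Counts were tested with edgeR 4.0.16 in R 4.3.3 (limma 3.58.1 and DESeq2 1.42.0 as alternatives): filterByExpr, TMM scaling, quasi-likelihood F-test, Benjamini-Hochberg adjustment over 17062 genes, and calls made under 0.05. Each SE is the absolute log2 fold change over the square root of F. Log2 CPM used a prior count of 2. Positions, union exon lengths and exon overlaps came from GENCODE M21 (GRCm38), the assembly of mm10, and promoters from RefSeq (GRCm38.p6). The members, lists and rules were chosen with earlier results of these data known. Full statistics are given for the 24 members with the smallest p and for other members where a group is described, and up to 4 called genes per list (2 with the smallest p where none was called) are named. Counts of the 17062 genes were simulated with 1 spread per gene, estimated from these libraries and shared by both genotypes. Of these genes 16311 passed the filter on the simulated counts and were tested. Sets of 50 of the more expressed genes given true changes of 2, 4, 8 and 16 times yielded 0, 24, 41 and 46 calls, beside 8 false calls. The wider distance between the mutant libraries was not simulated, so these counts do not give the error rates of the test here.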

Additional observations from a re-analysis of the deposited data

How the results depend on the processing

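The 10 members called lower became 25 with upper-quartile scaling, 32 with library size only, 25 with no filter, 17 with DESeq2's Wald test (which also called Orc4 higher, 1 member), 24 with limma-voom, and 1 to 40 when each library was left out in turn, with 0 to 1 called higher. The median log2 fold change of members was -1.37 with upper-quartile scaling, -1.60 with library size only, -1.48 with limma-voom and -1.85 to -0.52 with a library left out. The median of all tested genes moved by -0.28 with upper-quartile scaling and -0.51 with library size only, by -0.14 with limma-voom, and by -1.31 with no filter. Upper-quartile scaling called 1419 genes higher and 1837 lower, and library size only called 1181 and 2877, against 1801 and 755. The share of all tested genes called lower was 4.89% with no filter, 12.5% with DESeq2's Wald test and 8% with limma-voom. It was 4.43% in the test of genotype, so part of the rise in called members under DESeq2 and limma-voom was shared by all genes. Members stayed about 1 log2 unit under all genes by scaling (-1.02 and -1.02, against -0.99 with TMM), but with no filter they lay 0.29 above the median of all genes, which then includes genes with hardly any counts.

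Replicate numbers 2 and 3 occur in both genotypes. Samples of one number deviated with correlations of -0.03 and -0.02. With a replicate block 18 members were called lower, where 1.36% of all genes were, and 5 of the 10 stayed called. The median log2 fold change was then -1.31 for the members and -0.21 for all genes.

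Of the values of single genes under alternatives, 550 kept direction and side of the threshold, 143 gained and 67 lost a call, and 20 changed sign, all in members not called. Gins4 was -0.16 with upper-quartile scaling, -0.39 with library size only and -0.0016 with a replicate block, and Rpa3 was -0.20 with library size only. With each library left out, Orc3 ranged from -0.41 to 0.21, Rfc2 from -0.37 to 0.21, Rfc3 from -1.66 to 0.62, Gins4 from -0.021 to 0.37, Rpa3 from -0.30 to 0.81, Pola2 from -1.64 to 0.12, Pcna from -0.62 to 0.0081, Rfc5 from -1.06 to 0.039 and Dna2 from -1.51 to 0.33. The cause was not tested. The total of 17459808 counts in Tet2-mutant replicate 2 limits the scarcest member, Fen1, most.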
